A study of Rattus norvegicus with 24 samples.

Results

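The transcripts of the brain were set beside those of liver, thymus and spleen in Sham control rats. Of the 24 messenger RNA libraries of the study, which sequenced these 4 tissues in animals labelled SAM or Sham under a title that speaks of PCB-exposed and Sham-exposed rats, only the 12 Sham libraries were used: 3 of brain (numbered 13, 15 and 16 in the labels), 3 of liver (13, 14 and 15), 3 of thymus (14, 15 and 17) and 3 of spleen (14, 15 and 17). Nothing in the labels says that libraries with 1 number came from 1 rat. All came from Sprague-Dawley rats, an outbred laboratory stock, aged 7 months and given the Sham treatment, which the labels do not describe further. The brain label names no region, sex or perfusion. Each of the 3 other tissues carried the same weight in the mean. Thymus and spleen, which share many immune cells, were 6 of the 9 other libraries and together still outweighed liver in it.

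Neurons signal with synapses. An action potential carried by voltage-gated sodium and potassium channels opens calcium channels at the axon terminal, SNARE proteins fuse transmitter-filled vesicles with the membrane, and receptors anchored in a postsynaptic density answer. Oligodendrocytes wrap axons in myelin, astrocytes clear transmitter and potassium, and microglia are the resident macrophages. Many genes of this equipment have a near relative that does the same work in other cells, and in non-neuronal cells a repressor, REST, is known to hold many neuronal genes silent.

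The brain libraries held 17.1 to 19.6 M (mega) counts and all 12 held 13.3 to 20.1 M. Levels are given as CPM, counts-per-million after TMM scaling, which corrects each library for a few very abundant transcripts; the 100 most abundant genes took 51.2 to 52.2% of the counts in liver but 21.5 to 22.5% in brain. Between 13995 and 14232 genes reached 1 CPM in brain before scaling, against 11364 to 11458 in liver, 13843 to 14010 in thymus and 13574 to 13669 in spleen. The brain libraries correlated with one another at 0.995 (Spearman, across 17204 genes, which are not independent replicates), with liver at 0.483 to 0.493, with spleen at 0.550 to 0.560 and with thymus at 0.556 to 0.572. One library stood apart from its group: mitochondrially encoded genes took 8.18% of the counts of thymus 15, against 2.95 and 3.64% in the other thymus libraries, and higher levels of several genes also abundant in brain or liver, named below where they touch a result. In bulk tissue, fewer cells of a type and less RNA per cell cannot be told apart.

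Calls followed 2 rules, both on edgeR's quasi-likelihood test over all 17204 genes with enough counts, with Benjamini-Hochberg adjustment at 0.05. By the first, brain was compared with the mean of the 3 tissues on the log scale. It called 6821 genes higher in brain (39.6% of those tested) and 7222 lower (42.0%), so most genes passed and a call by itself says little. By the second, a gene had to differ by at least 4-fold, with an adjusted p under 0.05, from liver, from thymus and from spleen separately; 2486 genes were then higher than in each tissue (14.5%) and 975 lower (5.67%). Against single tissues, 4-fold differences numbered 4173 higher and 3039 lower against liver (24.3 and 17.7%), 3688 and 3038 against thymus (21.4 and 17.7%) and 3707 and 3049 against spleen (21.5 and 17.7%). The median gene had a log2 fold change of -0.13 against the mean of the 3 tissues, and -0.19 when tissues with less than 3 counts per library were set at that floor.

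**Figure D1:**
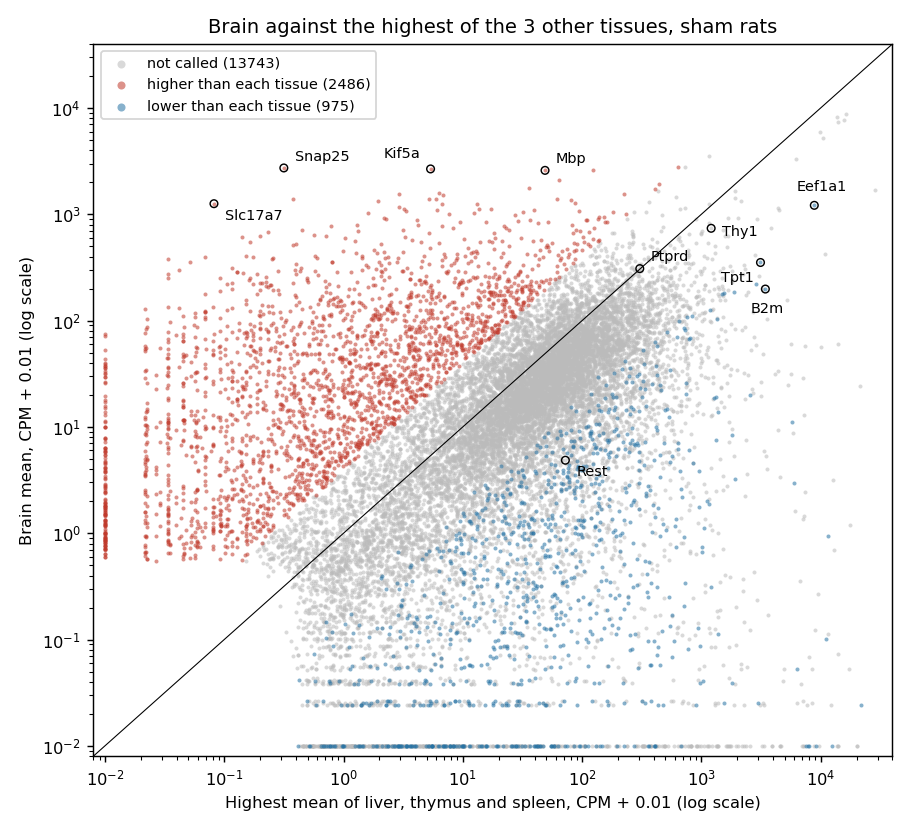
Each point is 1 of 17204 genes: mean CPM of the 3 brain libraries on the vertical axis against the highest of the means of liver, thymus and spleen on the horizontal axis, both on log scales with 0.01 added. Red points are the 2486 genes higher in brain than in each tissue by 4-fold, blue points the 975 lower than in each; circles mark genes named in the text.

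The most abundant brain-restricted transcripts were neuronal and glial. Genes had to be at least 32-fold higher than in each tissue and above all 9 other libraries, a condition that 1110 genes met, and the 15 with the highest CPM include Snap25, Kif5a, Mbp, Sparcl1, Cpe, Ndrg4, Map2, Syt1, Camk2a, Nrgn, Slc17a7 and Map1b. CPM is a share of reads, so this order also reflects transcript length. Snap25, a SNARE of the axon terminal, stood at 2511, 3062 and 2610 CPM in brain, at 0 in the 3 liver libraries, at 0.491, 0.215 and 0.212 in thymus and at 0.0507, 0 and 0.0573 in spleen. Every brain library was far above every other library for this gene, and its log2 fold change against thymus, the tissue with the most counts, was 13.09 ± 0.30 (SE). Slc17a7, the vesicular glutamate transporter of cortical and hippocampal neurons, reached 1287, 1277 and 1210 CPM in brain, against 0 in liver, 0, 0 and 0.0705 in thymus and 0.101, 0 and 0.115 in spleen. The counts behind those thymus and spleen values were 6 in all, so no fold is given.

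Kif5a, a neuronal kinesin motor, stood at 2451, 3214 and 2347 CPM in brain, 0.738, 0.634 and 1.75 in liver, 0.772, 0.680 and 0.917 in thymus and 4.76, 5.46 and 5.84 in spleen. Its log2 fold change was 10.67 ± 0.16 against the mean of the tissues (adjusted p = 4.17e-15) and lowest against spleen, at 8.96 ± 0.24. Mbp, myelin basic protein, whose locus is also known to be transcribed in blood cells, was less restricted: brain had 2414, 3019 and 2335 CPM, liver 19.5, 29.7 and 32.8, thymus 47.2, 42.7 and 56.8, and spleen 16.2, 16.6 and 18.3. The groups did not overlap, and the log2 fold change was 6.51 ± 0.14.

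For 26 of the 9473 genes that reached 10 CPM in brain, the 9 other libraries together held 0 counts, and for 107 they held at most 3. The highest of the 26 was Car10, a catalytically inactive relative of the carbonic anhydrases, at 81.0, 77.5 and 64.8 CPM. Set against a floor of 3 counts in each of the 9 libraries, it was at least 332-fold higher in brain. Gabrd, the delta subunit of extrasynaptic GABA-A receptors, followed at 61.3, 92.4 and 62.8 CPM (at least 322-fold higher). Grm7, a presynaptic metabotropic glutamate receptor, and Grin2b, an NMDA receptor subunit, were also among the 26. Grm7 was even between libraries at 32.3, 31.5 and 30.1 CPM, whereas Grin2b ran from 16 in brain 13 to 28.9 and 32.9 in brains 15 and 16.

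Lists of genes by role were then counted. Of the 20 pan-neuronal genes, 19 were higher in brain than in each tissue, and the median log2 fold change was 9.87 (8.99 with tissues at the floor). Rbfox3, which encodes the neuronal nuclear antigen NeuN, stood at 116, 141 and 107 CPM in brain and at most 0.405 elsewhere. Thy1 was the exception, and is taken up with the genes shared with thymus.

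The release machinery was almost wholly higher. Of 32 genes for vesicle release and recycling, 31 were higher in brain than in each tissue, with a median of 8.42 (7.66 at the floor). Vamp1, a vesicle SNARE, was the exception, at a log2 fold change of 3.76 against the mean of the tissues. Syt1, the calcium sensor of fast release, had 1469, 1297 and 1387 CPM in brain, 0.148, 0 and 0 in liver, 0.491, 0.143 and 0.458 in thymus and 0.355, 0.224 and 0.401 in spleen. Vamp2, the main vesicle SNARE of the terminal, had a common base elsewhere: 821, 764 and 781 CPM in brain, 57.9, 59.3 and 56.0 in liver, 84.4, 76.0 and 80.0 in thymus and 78.0, 82.0 and 84.9 in spleen. It was higher in brain by 3.45 ± 0.06 on the log2 scale, with no overlap between brain and any other library.

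On the receiving side, 25 of 29 genes of the postsynaptic density and synaptic adhesion were higher than in each tissue (median 6.57). Shank2, Homer2, Gphn and Cbln1 were higher than the mean of the tissues but not than each. Dlg4, the scaffold PSD-95, stood at 610, 571 and 530 CPM in brain, 2.66, 3.30 and 2.33 in liver, 50.5, 32.3 and 52.5 in thymus and 11.5, 10.1 and 12 in spleen, so thymus came closest (log2 fold change 3.66 ± 0.17). Shank3, a scaffold next to it, was nearest to spleen, at 288, 325 and 255 CPM against 64.7, 64.0 and 55.2 (2.24 ± 0.13).

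All 17 tested ionotropic glutamate receptor subunits and all 8 metabotropic glutamate receptors were higher in brain than in each tissue. Members near 0 elsewhere entered the test only through their brain counts, in these and in all other lists and families. For them this outcome was largely fixed by the filter. Medians were 8.75 and 10.74, and 6.93 and 7.36 with tissues at the floor. The eighteenth ionotropic subunit, Grin3b, had 5, 3 and 3 counts in brain and was not tested. Gria2, the AMPA receptor subunit that limits calcium entry, had 696, 669 and 751 CPM in brain, 0.148, 0 and 0 in liver, 1.86, 1.36 and 0.740 in thymus and 3.55, 2.36 and 3.49 in spleen. Grin1, the obligatory NMDA receptor subunit, had 548, 553 and 492 CPM in brain, 0 in liver, 0.316, 0.429 and 0.423 in thymus and 0, 0.0374 and 0 in spleen. For both genes the lowest brain value was far above the highest value elsewhere.

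Of 18 tested GABA and glycine receptor subunits, 16 were higher in brain than in each tissue, and Gabrq was higher than the mean of the tissues only. Gabrr2, a rho subunit best known from the retina, was lower than the mean of the tissues, at 1.46, 1.49 and 0.968 CPM in brain against 5.37, 5.84 and 7.45 in spleen (log2 fold change against the mean -1.48 ± 0.30, adjusted p = 0.000512). Its brain values overlapped those of liver, which were 1.03, 3.55 and 2.48. A further 6 subunits had too few counts to test, among them Gabra6, the subunit of cerebellar granule cells, with 17, 10 and 7 counts in brain.

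Among ion channels, 24 of 29 sodium and calcium channel genes and 28 of 32 potassium and HCN channel genes were higher than in each tissue. Medians were 8.41 and 7.21, and 6.89 and 6.10 with tissues at the floor. The sodium and calcium channel genes outside the 24 included Scn4a, the skeletal muscle form, Cacna1d, Cacnb1 and Cacnb2. Kcnq1, a channel of heart and epithelia, was the only gene on these lists called lower than the mean of the tissues, at 0.137, 0.149 and 0.253 CPM in brain, below all 9 other libraries (0.456 to 2.58).

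Genes for making and moving transmitters were less uniform: 15 of 26 were higher than in each tissue. Those outside included enzymes that liver also has, such as Ddc, Maoa, Maob, Abat and Glul. Glul, glutamine synthetase, stood at 1238, 1392 and 1156 CPM in brain and 996, 1199 and 1260 in liver. These ranges overlapped. Slc18a2, the vesicular monoamine transporter, had 0, 0.0496 and 0.0421 CPM in brain, against 1.32, 0.673 and 0.802 in spleen.

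Of 24 tested neuropeptide and dense core granule genes, 19 were higher than in each tissue. Npy and Pcsk1n were listed at 0 in all 12 libraries and no level is given for them. Sst and Cck, peptides of cortical interneurons and pyramidal cells, had 57.0 to 80.6 and 195 to 258 CPM in brain. Chga, chromogranin A of dense core granules, had 137, 149 and 123 CPM in brain and 0.562, 9.26 and 0.353 in thymus, the middle value that of thymus 15. Without that library its log2 fold change against thymus was 8.20 ± 0.19, in place of 5.33 ± 0.76.

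Cytoskeletal and nuclear genes followed the synaptic ones. All 33 axonal and dendritic cytoskeleton genes were above all 9 other libraries, against 26.6% of all genes, and 30 were higher than in each tissue by 4-fold. Of 19 RNA-binding and splicing factors 16 were, and of 30 chromatin and transcription factors 25. Fmr1, whose loss causes fragile X syndrome, was widely expressed, at 43.7, 39.1 and 43.7 CPM in brain, within the range of liver and spleen and below thymus (81.1, 69.0 and 76.5). Its small log2 fold change of -0.29 ± 0.08 (adjusted p = 0.00335) became -0.11 under RLE scaling (adjusted p = 0.178, edgeR's quasi-likelihood test) and 0.06 under library totals alone (adjusted p = 0.526), so no direction is given for it.

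**Figure D2:**
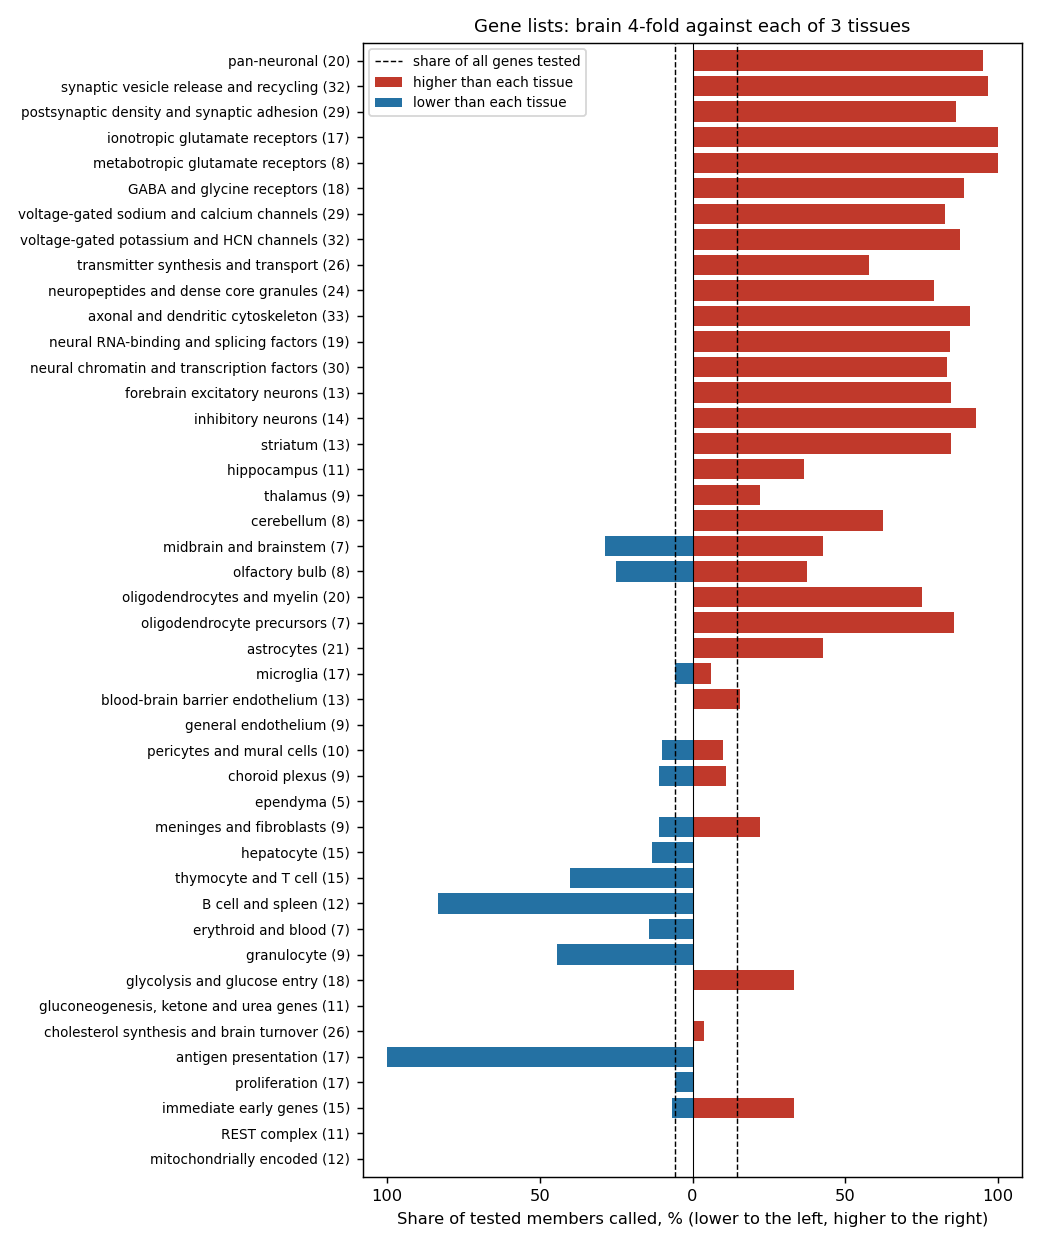
Bars give, for each list with at least 5 tested genes, the percentage of tested members that were at least 4-fold higher (red, right) or lower (blue, left) in brain than in each of liver, thymus and spleen; numbers of tested members stand in parentheses. Dashed lines mark the shares over all genes tested, 14.5% higher and 5.67% lower.

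Region markers were uneven. Of 13 forebrain excitatory genes 11, of 14 inhibitory neuron genes 13, and of 13 striatal genes 11 were higher than in each tissue. Neurod6, a transcription factor of cortical and hippocampal pyramidal cells, had 65.5, 50.6 and 58.3 CPM and 1 count in the 9 other libraries.

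Markers of the hindbrain, brainstem and hypothalamus were split in the same libraries. Of 8 tested cerebellar genes 5 were higher than in each tissue, among them Zic1, Zic2, Neurod1 and Itpr1, which are known from other neurons as well. Itpr1, a calcium release channel, had 739, 753 and 726 CPM in brain, and Zic1, a transcription factor, 8.54, 6.54 and 8.21, against 0 counts elsewhere. Pcp2, a Purkinje cell gene, had 0, 0 and 1 counts in brain, and Gabra6 had the few given above. Of 7 tested midbrain and brainstem genes 3 were higher than in each tissue, Th, Slc6a5 and Chat, all at low levels. Slc6a5, the glycine transporter of brainstem and spinal neurons, had 2.37, 0.992 and 1.52 CPM in brain and 7 counts elsewhere. Tph2, which makes serotonin in the raphe, had 7, 26 and 26 counts, and Dbh, of noradrenergic cells, had 0, 5 and 2. Hoxb3 and Hoxb5, expressed in hindbrain and spinal cord, had 0 counts in brain and were lower than in each tissue. Avp and Oxt, hypothalamic hormones, had 5, 6 and 2 and 3, 2 and 2 counts. Of the 12 hypothalamic genes, 4 had enough counts to test. Tcf7l2, a thalamic transcription factor, stood at 3.97, 3.52 and 4.17 CPM, lower than in liver and spleen and overlapping thymus. Which parts of the brain were dissected is not given in the sources used here, and the part this played in the levels was not tested.

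Choroid plexus and pituitary genes varied or were missing. Ttr, the chief transcript of the choroid plexus, had 0, 0.149 and 0.0421 CPM in brain, against 12474 to 16379 in liver. Kcnj13, another choroid plexus gene, was detected in brain only, at 0.685, 1.39 and 2.32 CPM against 0 counts elsewhere. Prl, pituitary prolactin, had 216 counts in brain 13 but 2 and 0 in brains 15 and 16, and Gh1, growth hormone, had 29, 0 and 0. Both genes were highest in brain 13. Lhb, the pituitary gene of the list with enough counts to test, was instead highest in brain 16, at 0.456, 0.595 and 1.09 CPM.

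Several striatal genes differed between the 3 brain libraries. Drd2, the dopamine receptor of the indirect pathway, stood at 2.78 CPM in brain 13 and at 13.4 and 17.3 in brains 15 and 16. Adora2a, the adenosine receptor of the same cells, had 4.43, 17.9 and 18.5 CPM, and Rgs9, which ends striatal G protein signals, 7.94, 32.3 and 33.9. Ppp1r1b, which encodes DARPP-32 in both kinds of striatal projection neuron, had 106, 194 and 183 CPM, and Penk, enkephalin, 38.7, 73.0 and 85.1. All 5 genes were lowest in brain 13, and the mean log2 level of the 13 striatal genes was 3.88 in that library against 4.98 and 5.16. By contrast Slc17a7, Tbr1, Gad1 and Vip lay close together in the 3 libraries. Of 11 hippocampal genes 4 were higher in brain than in each tissue. The summed level of all 11 was 256, 133 and 205 CPM in brains 13, 15 and 16, lowest in brain 15. Their mean log2 level differed little, at 1.02, 0.94 and 1.16. Wfs1, a gene of the list found in CA1 neurons among other cells, had 184, 81.9 and 139 CPM and took the largest share of that sum. Over the 9472 named genes that reached 10 CPM in brain, the range between the 3 libraries had a median of 0.175 on the log2 scale and a 95th percentile of 0.504, and 72 genes had a range of at least 1. The 10 widest were Col13a1, Drd2, Mei1, Rgs9, Adora2a, Nr4a2, Adam33, Ryr1, Igfbp6 and Lxn. Nr4a2, expressed in claustrum and deep cortex among other sites, was instead highest in brain 16, at 12.2, 16.8 and 44.6 CPM, and Col13a1 was highest in brain 15, at 4.02, 34.8 and 13.6. Adora2a was also present in thymus (14.8, 15.3 and 15 CPM) and in spleen, and its log2 fold change against the mean of the tissues was not called (0.51 ± 0.30, adjusted p = 0.135). Without brain 13 it was 0.93 (adjusted p = 3.66e-05).

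**Figure D3:**
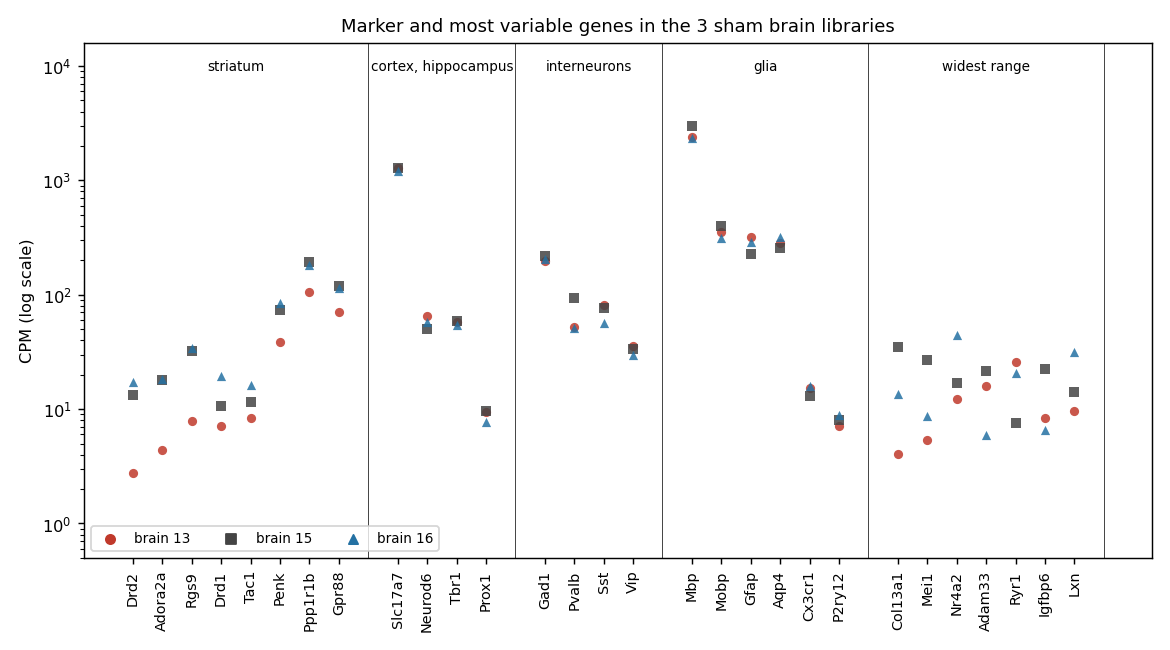
Points give the CPM (log scale) of marker genes and of the genes with the widest range in the 3 Sham brain libraries, one symbol per library. The 8 striatal genes shown are lowest in brain 13, while Slc17a7, Tbr1, Gad1 and Vip lie close together; Drd2, Rgs9 and Adora2a, drawn among the striatal genes, also belong to the 10 with the widest range.

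Glial lists split by cell type. Of 20 oligodendrocyte and myelin genes, all were higher than the mean of the tissues and 15 higher than in each. The median log2 fold change was 8.60 (6.56 with tissues at the floor). Mobp, a small myelin protein, had 353, 398 and 315 CPM in brain and 5 counts in the 9 other libraries. Cnp, a myelin enzyme also induced by interferon in immune cells, was not restricted: spleen had 375, 362 and 361 CPM against 294, 316 and 276 in brain. Of 7 oligodendrocyte precursor genes 6 were higher than in each tissue, and Pdgfra, also a fibroblast receptor, was above all 9 but by less than 4-fold of spleen.

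Astrocyte genes were higher than the mean of the tissues in 20 of 21 cases but higher than each tissue in 9. Gfap, the astrocyte intermediate filament, had 320, 227 and 289 CPM in brain and at most 3.79 elsewhere. S100b, a calcium-binding protein of the same cells, had 1050, 1162 and 1055 CPM in brain and 4.81, 10.8 and 0.987 in thymus, with thymus 15 again the highest (log2 fold change against thymus 7.62 ± 0.57, and 8.55 ± 0.44 without it). Several astrocyte genes stood higher in liver. Aldh1l1, of folate metabolism, had 25.7, 25.9 and 26.2 CPM in brain but 1158, 830 and 714 in liver. Apoe, which carries lipid between glia and neurons, had 1673, 1723 and 1651 CPM in brain, 24240, 30655 and 30318 in liver and 319 to 609 in thymus and spleen, so it lay between the tissues.

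Microglial genes did not set brain apart. Of 17, 7 were higher and 9 lower than the mean of the tissues, against 39.6 and 42.0% of all genes. Against each tissue, 1 was higher (Trem2) and 1 lower (C1qc), where 14.5% of all genes were higher and 5.67% lower. Trem2, a lipid receptor of microglia, had 10.9, 11.5 and 9.56 CPM in brain and at most 1.32 elsewhere. Cx3cr1, the fractalkine receptor, had 15.2, 13.1 and 16 CPM in brain, 0.148, 0.507 and 0.146 in liver, 3.37, 4.65 and 4.20 in thymus and 4.81, 5.20 and 4.81 in spleen. Of the 17, 5 were below all 9 other libraries, near the 21.9% of all genes. C1qa, a complement component, had 32.1, 30.9 and 35.0 CPM in brain and 500, 412 and 268 in spleen, and Aif1, or Iba1, had 10.5, 10.8 and 9.81 in brain and 196, 152 and 143 in spleen; both were below all 9 other libraries.

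Barrier and vessel genes were mixed. Of 13 blood-brain barrier genes 10 were higher than the mean of the tissues, against 39.6% of all genes. Higher than each tissue were 2, near the 14.5% of all genes. These were Slco1c1, the thyroxine transporter, with 84.3, 97.2 and 80.3 CPM and 3 counts elsewhere, and Slc2a1, the glucose transporter of barrier endothelium. Slc2a1 stood at 122, 116 and 109 CPM in brain, 6.79, 5.45 and 6.86 in liver, 19.9, 21.3 and 22.7 in thymus and 24.1, 30.7 and 23.7 in spleen. No gene of 9 for endothelium in general was called against each tissue.

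**Figure D4:**
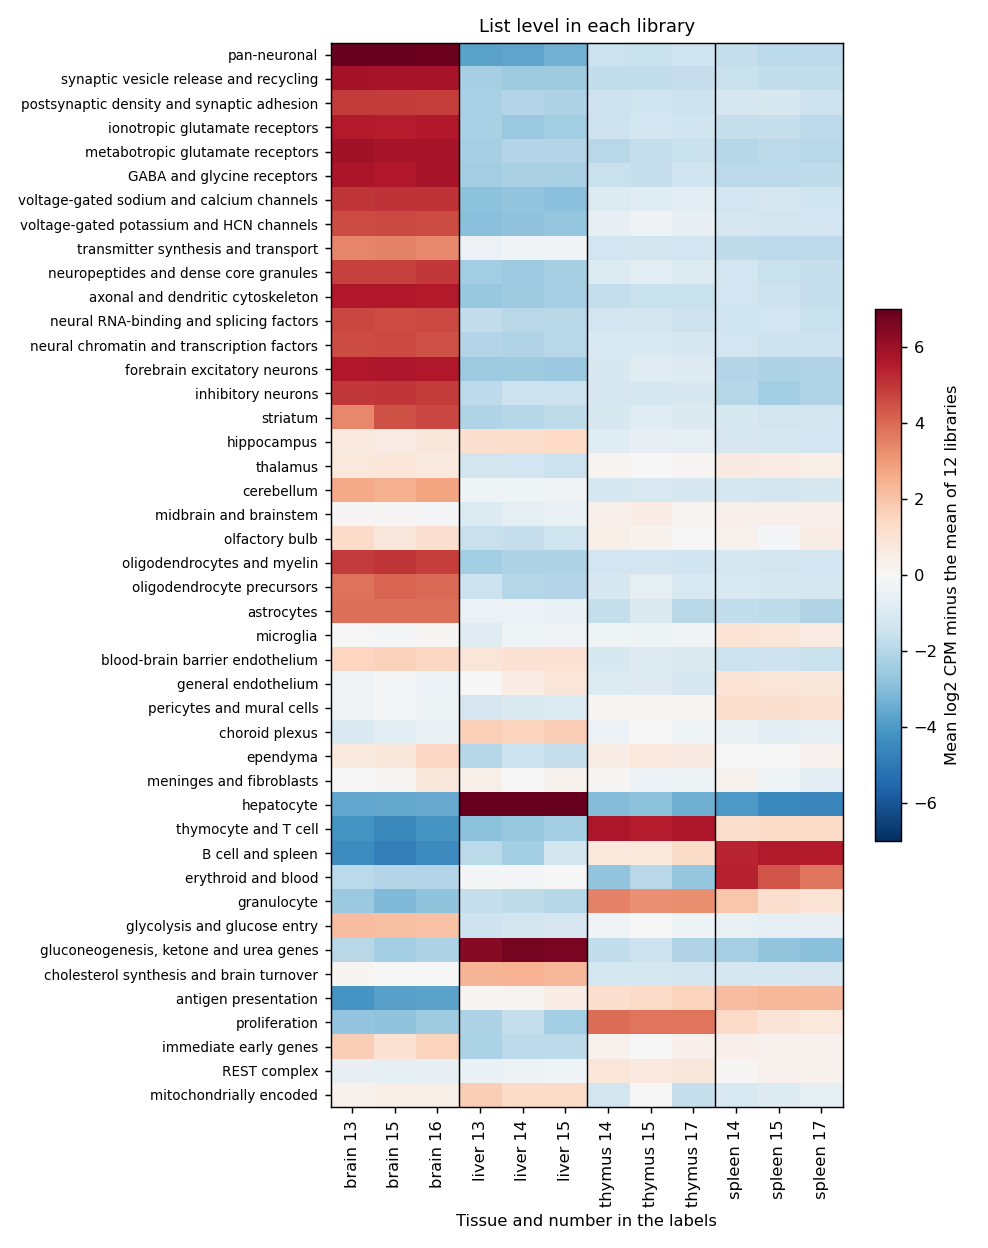
Colour gives the mean log2 CPM of each list's tested members in each of the 12 libraries, minus the mean over the 12, with colours saturated at 7. Neuronal and synaptic lists are red in the 3 brain libraries, the hepatocyte and urea lists in liver, the T cell and proliferation lists in thymus and the B cell and erythroid lists in spleen; the striatal list is paler in brain 13.

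Energy genes differed by isoform. Of 18 genes for glycolysis and glucose entry, 17 were higher in brain than the mean of the tissues, and 6 were higher than each: Slc2a1, Pfkm, Pfkp, Aldoc, Eno2 and Ldhb. Pfkm, the muscle-type phosphofructokinase, had 540, 565 and 506 CPM in brain against 16.6 to 21.9 in liver, 53.0 to 62.0 in thymus and 21.5 to 24.2 in spleen (log2 fold change 4.22 ± 0.08). Ldhb, the heart-type lactate dehydrogenase, had 423, 530 and 407 CPM in brain, 2.66, 4.06 and 3.79 in liver, 33.9, 94.7 and 29.4 in thymus and 23.7, 23.3 and 22.9 in spleen. Thymus 15 was the highest library outside brain, and without it the log2 fold change against thymus was 3.84 ± 0.15, in place of 3.10 ± 0.35. Ldha was the single gene of the list that was lower than the mean of the tissues (log2 fold change -0.84 ± 0.12). It had 1330, 1478 and 1508 CPM in liver against 333, 240 and 312 in brain. It was not called lower than each tissue, and 0 genes of the list were lower than thymus or spleen by 4-fold. Among 11 genes for gluconeogenesis, ketone bodies and the urea cycle, 9 were lower than the mean of the tissues, against 42.0% of all genes. Only Oxct1, which lets a tissue burn ketone bodies, was higher. By 4-fold, 10 were lower than liver, 1 than thymus, 0 than spleen and 0 than each tissue. Median log2 fold changes were -10.02 against liver, 0.29 against thymus and 0.09 against spleen, so the difference lay with liver. Oxct1 had 223, 224 and 228 CPM in brain, 4.58, 4.95 and 4.08 in liver, 141, 150 and 124 in thymus and 86.6, 87.2 and 84.4 in spleen.

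Of 26 cholesterol genes, 9 were higher and 10 lower than the mean of the tissues, near the 39.6 and 42.0% of all genes. Higher than each tissue was 1, against 14.5% of all genes. That gene was Cyp46a1, the enzyme by which neurons turn cholesterol into an exportable sterol, at 230, 209 and 211 CPM in brain and at most 2.0 elsewhere.

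Antigen presentation genes were low in brain without exception. All 17 genes were below all 9 other libraries, against 21.9% of all genes, and lower than in each tissue by 4-fold, against 5.67%, with a median log2 fold change of -5.12. Psmb8, an immunoproteasome subunit, had 1.46, 1.49 and 1.64 CPM in brain, 120, 152 and 128 in liver, 115, 113 and 126 in thymus and 98.4, 106 and 101 in spleen. The 3 other tissues lay close together for this gene, and the difference from brain was -6.25 ± 0.12 (adjusted p = 3.67e-14). B2m, the light chain of MHC class I molecules, was still abundant in brain at 181, 208 and 206 CPM, but stood at 3563, 3494 and 3262 in liver, 756, 875 and 1011 in thymus and 2176, 1921 and 2031 in spleen. The RT1 genes, the rat MHC, have near-identical copies between which reads can be split, so their single values are uncertain. Cd74, the class II chaperone, had 6.25, 11.7 and 15.1 CPM in brain against 142 to 333 in liver.

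Markers of the other tissues were low in brain, though not all absent. Of 15 T cell genes 13, of 12 B cell genes 11 and of 15 hepatocyte genes 10 were lower than the mean of the tissues. None was higher, and over all genes the shares were 42.0% lower and 39.6% higher. The mean is taken on the log scale, where a tissue at 0 weighs as much as one at a very high level, and some genes of liver were not called for it. Cps1, of the urea cycle, had 2.51, 2.73 and 2.02 CPM in brain, 8019, 7651 and 6635 in liver, 0.175, 0.143 and 0.423 in thymus and 0 in spleen. Alb, albumin, had 11.6, 9.22 and 8.59 CPM in brain, 272187 to 303322 in liver, 3.51, 44.9 and 0.317 in thymus and at most 0.557 in spleen. Hbb, beta-globin, a measure of blood in the sample, had 64.1, 61.8 and 44.6 CPM in brain, below liver (304 to 382) and spleen (7176 to 15039) and above thymus 14 and 17. All 17 proliferation genes were lower than the mean of the tissues, against 42.0% of all genes. Lower than each tissue was 1, Mki67, near the 5.67% of all genes. By 4-fold, 17 were lower than thymus, 14 than spleen and 1 than liver. Median log2 fold changes were -6.90 against thymus, -3.67 against spleen and -1.01 against liver. Mki67 had 0.776, 0.198 and 1.22 CPM in brain, 4.58, 5.83 and 2.48 in liver and 559 to 701 in thymus.

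Translation genes led the list of abundant transcripts that were lower in brain. By level in the lowest other tissue, the first 15 genes called lower than each included Eef1a1, Tpt1, Rplp0, Rpl7, B2m, Rps4x, Rps3a, Pabpc1, Rps18, Rpl23, Rpl11, Rpl24, Rpl12 and Rpl10a. Eef1a1, the main elongation factor, had 1232, 1146 and 1264 CPM in brain, 8548, 8916 and 9080 in liver, 5098, 4973 and 4818 in thymus and 8890, 8566 and 8107 in spleen. Pabpc1, which binds poly(A) tails, had 98.6, 103 and 107 CPM in brain against 658 to 740 in liver, 1045 to 1183 in thymus and 1276 to 1429 in spleen. Ribosomal protein genes have many processed pseudogenes, and how reads that match several places were counted is not given in the sources used here. Their values are therefore uncertain. Counted over all 87 tested genes that carry a ribosomal protein symbol, 84 were lower than the mean of the tissues under TMM, and 84 also under RLE, upper quartile scaling or library totals alone. The exception called higher was a second gene listed as Rps2, at 2.03 CPM in brain. The count lower than each tissue by 4-fold moved with the scaling, from 24 under TMM to 9 under RLE, 12 under upper quartile scaling and 1 under library totals alone, and the median log2 fold change lay between -2.13 and -1.76.

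Some abundant brain transcripts were shared with 1 other tissue, defined as within 2-fold of it and at least 8-fold above both remaining tissues. There were 90 such genes for liver, 61 for thymus and 33 for spleen. Thy1, a surface glycoprotein of neurons that is also the classic thymocyte antigen, had 722, 821 and 672 CPM in brain, 0, 0.380 and 0.584 in liver, 1344, 1051 and 1230 in thymus and 12.4, 11.1 and 13.4 in spleen. Stmn1, a microtubule destabiliser of neurons and dividing cells, had 492, 483 and 480 CPM in brain and 623, 586 and 559 in thymus, against 5.46 to 10.1 in liver and 33.0 to 51.0 in spleen. Arpp21, a phosphoprotein regulated by cyclic AMP, had 304, 349 and 377 CPM in brain and 260, 205 and 235 in thymus, and at most 15.6 in the others.

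With liver, the most abundant shared genes were Gabarapl1, Ptprd, Slc25a23, Itfg1 and Lrp11. Ptprd, a receptor phosphatase that organises synapses, had 289, 328 and 308 CPM in brain and 320, 293 and 301 in liver, a difference smaller than its error (0.02 ± 0.18). Thymus had 7.76, 12 and 5.47 CPM and spleen 4.41, 5.12 and 5.21. With spleen they were Chst1, Cdh11, Bcl11a, Gfra2 and Unc5c. Bcl11a, a transcription factor of cortical neurons and of B cells, had 51.7, 53.7 and 43.3 CPM in brain, 36.8, 52.9 and 49.7 in spleen, 4.42, 4.18 and 6.13 in thymus and 0, 0 and 0.292 in liver.

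The neural form of 38 gene families was set against a relative with wider use. In all 38 pairs the neural form was higher in brain than the mean of the tissues, and in 35 it was higher than in each. The other form was lower than the mean of the tissues in 17 pairs, higher in 15, not called in 5 and not tested in 1 (Ckm). These counts of the other form were near the shares over all genes, 42.0% lower and 39.6% higher. The log2 ratio of the counts of both forms, which no scaling can move, lay above all 9 other libraries in brain in 35 pairs and overlapped them in 3, and its median difference from the mean of the 3 tissues was 7.98. Since the 2 genes of a pair differ in length, the ratio is read only between tissues.

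In 3 pairs the other form was lower in brain than in each tissue, where 5.67% of all genes were lower. One was Vamp2 with Vamp8, the latter at 6.25, 6.50 and 6.10 CPM in brain against 24.9 or more in every other library. Another was Ptbp2 with Ptbp1, splicing repressors of which neurons are known to exchange the second for the first. Ptbp1 had 38.3, 36.5 and 38 CPM in brain, 196, 235 and 241 in liver, 422, 388 and 430 in thymus and 253, 272 and 255 in spleen. Ptbp2 had 60.2, 54.7 and 64.6 CPM in brain, 3.21 to 4.43 in liver, 20.7 to 22.4 in thymus and 11.3 to 16 in spleen; thymus came within 4-fold of brain for it (1.49 ± 0.12).

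In 3 other pairs both forms were higher in brain than in each tissue, where 14.5% of all genes were higher. Among them were Atp2b2 with Atp2b1, calcium pumps of the plasma membrane, and Rtn1 with Rtn4, reticulons of the endoplasmic reticulum. The last was Dpysl5 with Dpysl2, mediators of axon guidance. Atp2b1 had 513, 519 and 495 CPM in brain and 44.4 to 56.2 in the 9 others. Its log2 fold change was 3.39 ± 0.07, whereas that of Atp2b2 was 8.67 ± 0.15. Dpysl5 with Dpysl2 was among the 3 pairs whose ratio overlapped between brain and the others.

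**Figure D5:**
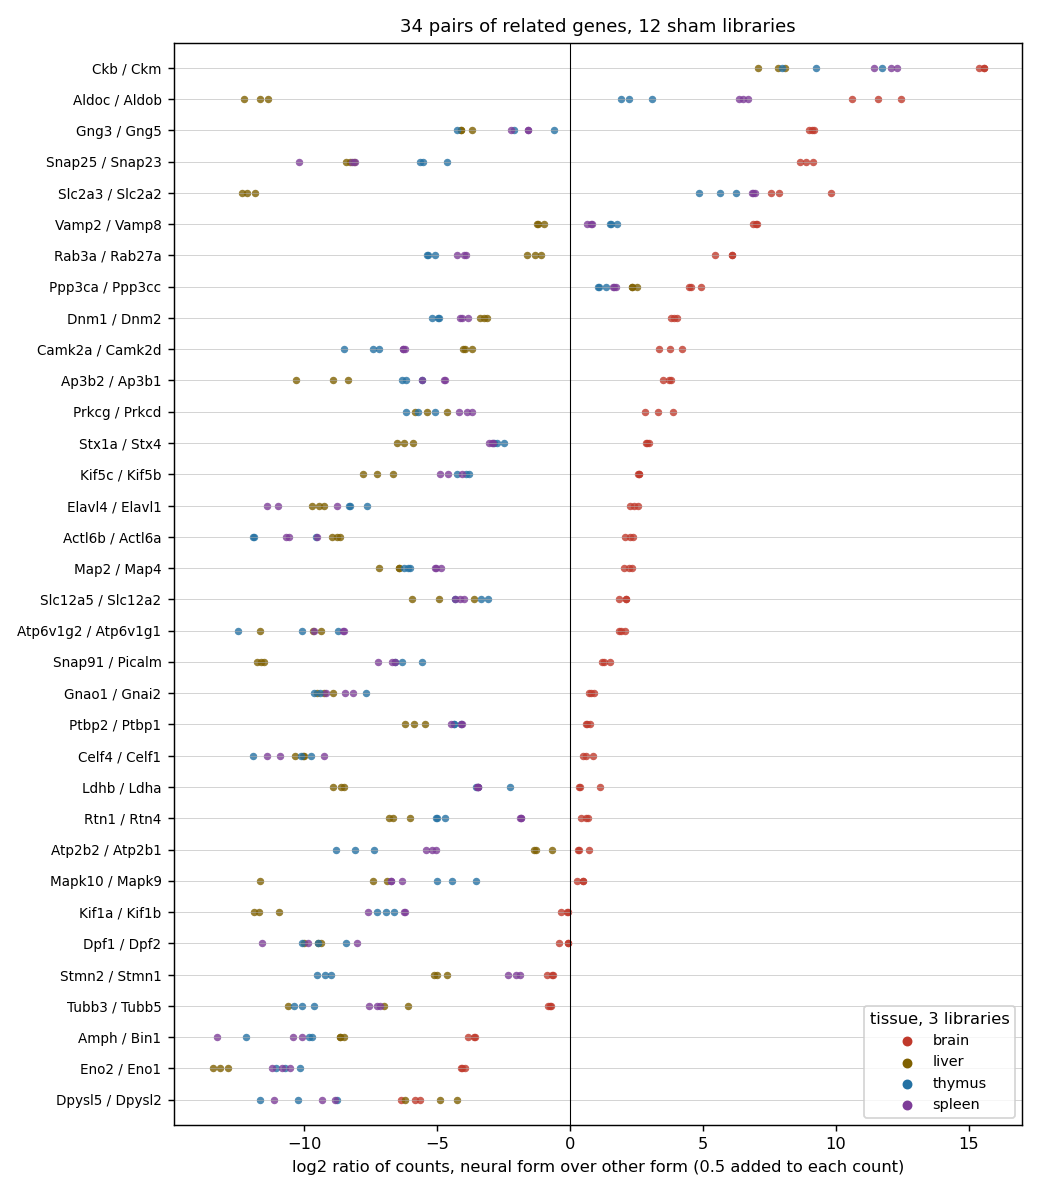
Each row is 1 of 34 of the 38 pairs of related genes, and each point the log2 ratio of the counts of the neural form over the other form in 1 library, with 0.5 added to each count; colours give the tissue. Brain points lie to the right of all 9 others in 33 of the 34 rows, and overlap them for Dpysl5 with Dpysl2.

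Rest, the repressor named above, was low in brain: 5.02, 4.76 and 4.76 CPM against 18.8, 15.3 and 22.6 in liver, 76.1, 65.1 and 76.1 in thymus and 48.6, 53.1 and 55.7 in spleen. Brain lay below all 9 other libraries, and the log2 fold change was -3.10 ± 0.12 (adjusted p = 2.94e-11). Of the 11 genes of the REST complex, 6 were lower than the mean of the tissues and 3 higher. Over all genes the shares were 42.0% lower and 39.6% higher. Rcor1, the corepressor that REST recruits, was lower (-1.33 ± 0.08) and its relative Rcor2 higher (4.20). Hdac2 and Kdm1a, enzymes of the complex, were not called, with differences of -0.05 ± 0.06 and -0.03 ± 0.06.

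Promoters were searched for the letters of RE1, the element REST is known to bind. The element has 21 letters, of which 18 were taken as fixed, and was sought on both strands with at most 3 mismatches in the 300 bases from 250 before to 50 after the start of each transcript (RefSeq, build GRCr8). Such a match was present in 35 of 33465 promoters (0.105%). Of the 12127 tested genes with a promoter entry, 23 had one, and 16 of those (69.6%) were higher in brain than in each tissue, against 13.9% of all with an entry. Of the 23, 0 were lower than in each tissue, against 4.89% of all with an entry. With at most 2 mismatches the count was 10 of 11 genes (90.9%), and with at most 4 it was 41 of 103 (39.8%). A match is a description of letters and shows no binding, and RE1 elements are also known outside this window. The matched promoters of 4 genes higher in brain are printed to show the element in place, and that of Cdc42ep1 as a match with 2 mismatches in a gene that was not called against each tissue. They read 5′ to 3′ on the strand of the gene, with the match in capitals. They lie, in GRCr8, for Vgf at chr12:25276971-25277270 (minus strand, 1 mismatch), Hrh3 at chr3:187574210-187574509 (minus strand, 2 mismatches), Tmem179 at chr6:137401389-137401688 (minus strand, 2 mismatches), Dpp10 at chr13:38821938-38822237 (minus strand, 2 mismatches) and Cdc42ep1 at chr7:112279813-112280112 (plus strand, 2 mismatches).
Vgf: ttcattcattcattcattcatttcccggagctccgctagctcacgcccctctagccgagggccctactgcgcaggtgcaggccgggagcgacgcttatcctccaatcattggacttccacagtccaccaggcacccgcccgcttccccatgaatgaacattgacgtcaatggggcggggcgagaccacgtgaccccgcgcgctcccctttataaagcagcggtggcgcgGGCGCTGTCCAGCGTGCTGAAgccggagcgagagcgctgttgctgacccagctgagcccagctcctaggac
Hrh3: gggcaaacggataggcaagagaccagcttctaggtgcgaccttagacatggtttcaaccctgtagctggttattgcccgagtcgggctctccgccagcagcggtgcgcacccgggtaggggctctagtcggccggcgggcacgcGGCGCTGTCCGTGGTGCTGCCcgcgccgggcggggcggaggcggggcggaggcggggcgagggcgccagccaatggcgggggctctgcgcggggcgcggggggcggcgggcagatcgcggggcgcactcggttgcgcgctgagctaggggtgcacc
Tmem179: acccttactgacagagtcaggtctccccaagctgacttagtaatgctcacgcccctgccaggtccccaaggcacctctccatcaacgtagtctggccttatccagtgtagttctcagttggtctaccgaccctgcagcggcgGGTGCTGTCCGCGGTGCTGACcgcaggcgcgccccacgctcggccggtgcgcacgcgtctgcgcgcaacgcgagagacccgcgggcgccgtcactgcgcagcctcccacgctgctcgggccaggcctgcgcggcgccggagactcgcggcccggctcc
Dpp10: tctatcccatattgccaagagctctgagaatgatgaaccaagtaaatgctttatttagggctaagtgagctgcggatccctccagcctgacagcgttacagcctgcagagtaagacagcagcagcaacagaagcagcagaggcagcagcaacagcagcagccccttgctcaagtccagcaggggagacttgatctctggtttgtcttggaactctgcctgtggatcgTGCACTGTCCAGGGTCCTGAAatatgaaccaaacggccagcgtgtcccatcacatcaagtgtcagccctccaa
Cdc42ep1: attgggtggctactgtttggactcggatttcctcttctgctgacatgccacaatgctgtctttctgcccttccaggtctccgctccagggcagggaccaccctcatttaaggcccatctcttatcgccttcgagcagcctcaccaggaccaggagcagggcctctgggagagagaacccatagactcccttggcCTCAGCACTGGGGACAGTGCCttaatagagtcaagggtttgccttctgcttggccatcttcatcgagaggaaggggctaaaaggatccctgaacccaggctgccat

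Vgf, a secreted neuronal peptide precursor, had 16.5, 20.1 and 16.5 CPM in brain and 11 counts in the 9 other libraries. Hrh3, the presynaptic histamine receptor, had 110.0, 104 and 99.1 CPM, Tmem179, a membrane protein, 109, 105 and 97.3, and Dpp10, an auxiliary subunit of potassium channels, 71.0, 74.4 and 73.9. Cdc42ep1, which acts on the cytoskeleton, had 20.4, 26.1 and 21.6. For comparison 4 short motifs were counted. TGACGTCA, the cyclic AMP element, occurred in 1.83% of promoters, and 49 of 354 tested genes with it (13.8%) were higher than in each tissue and 6 lower (1.69%). TATAAA occurred in 14.2%, with 151 of 1022 genes higher (14.8%) and 82 lower (8.02%). CCGGAAGT, read by ETS factors, occurred in 3.81%, with 31 of 862 genes higher (3.60%) and 16 lower (1.86%). The palindromic NRF1 motif occurred in 0.852%, with 14 of 201 higher (6.97%) and 2 lower (0.995%). Only 68.3% of the genes higher in brain and 61.6% of those lower had a promoter entry, so a check of base composition over the sets is void and none is given.

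Immediate early genes, which firing neurons switch on within minutes, were higher than the mean of the tissues in 11 of 15 cases and than each in 5: Fosb, Egr4, Arc, Npas4 and Nr4a2. Arc, which acts at active synapses, had 155, 64.3 and 107 CPM in brain, 0.148, 0.254 and 0.875 in liver, 10.7, 18.6 and 19.5 in thymus and 2.23, 1.57 and 2.29 in spleen. Npas4, an activity-dependent factor of neurons, had 10.5, 3.42 and 9.43 CPM in brain and 2 counts elsewhere. Fos had 15.5, 6.69 and 11.0 CPM in brain but 22.1, 16.9 and 20.3 in spleen. For Arc, Npas4 and Fos alike, brain 15 was the lowest of the 3 brain libraries. Ier2 was the single gene lower than in each tissue, at 6.62, 5.80 and 5.98 CPM against 29.8 or more in every other library.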

How the data were processed

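The deposited file is a single matrix of raw counts by gene, made by the authors without normalization for all 24 libraries. It has 32883 genes, 47 of them with no symbol, and 421 symbols occur more than once, for which a gene named by symbol is the one with the larger total, while the counts over all genes and over gene families keep each gene. Per the labels' protocols, RNA extraction used RNeasy and library construction the TruSeq stranded mRNA chemistry. STAR 2.2.1 and rat genome build rn6 appear, with no role, in the submitters' processing notes. How reads were assigned to genes, with which strand option and annotation, is not given in the sources used here. Values of genes that overlap or have close copies are therefore uncertain.

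From the counts of the 12 Sham libraries, edgeR 4.0.16 (R 4.3.3) removed genes with few counts (filterByExpr by tissue), scaled by TMM and ran the quasi-likelihood test with 1 spread estimate for all 4 tissues. Contrasts were brain minus the mean of liver, thymus and spleen on the log scale, and brain minus each. P-values were adjusted by Benjamini-Hochberg over 17204 genes and measure only the spread between these libraries. CPM (counts-per-million) values are TMM-scaled and come with no pseudocount. Ratios of related genes had 0.5 added to each count. Floors are 3 counts per library. The test was tested on simulated data.

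Genes were named by a fixed rule. It took the 15 most abundant among those at least 32-fold above each tissue, the 15 most abundant in the lowest tissue among those lower than each, and the 5 most abundant shared with each tissue. It added up to 4 abundant and 4 contrary members of each of 46 lists, both genes of 38 pairs, and the 10 genes of widest range in brain. Other genes named, and all gene families counted by symbol, were chosen after their values were seen. All members and lists were chosen with earlier results of these data known. Of 699 list symbols 685 were found. Promoters came from RefSeq (GRCr8), in which 71.1% of 17060 tested symbols had an entry, and none of the counts use its coordinates. Alternatives covered scaling, filters, tools (DESeq2 1.42.0, limma 3.58.1), fold thresholds, the replicate block and each library left out. Some genes that the rule named are not reported here.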

Additional observations from a re-analysis of the deposited data

How the results depend on the processing

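Each count was recomputed over all genes, and 141 of 146 alternative values lay within 1.5 times the reported one. The exceptions were genes lower in brain than in each tissue under library totals alone (589), at a 2-fold threshold (2088) and at an 8-fold threshold (535), and genes beyond 4-fold of the linear mean of the tissues, with no test (2938 higher and 3864 lower). With each library left out in turn, genes higher than in each tissue numbered 2504 to 2628, lower than in each 857 to 979, higher than the mean 6628 to 7209 and lower than it 6854 to 7278. Calls against liver then numbered 7218 to 7391, against thymus 6794 to 6964 and against spleen 6847 to 6966. Relative to TMM, the median gene shifted by 0.174 on the log2 scale under RLE, 0.175 in DESeq2 and 0.343 under library totals alone, where the median against liver shifted by 1.44. The share of calls that were higher in brain went from 48.6% to 53.6% under RLE and 58.4% under library totals.

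With the label number as a replicate block, 2450 genes were higher than in each tissue (2381 of them also without it) and 922 lower (839 also without it). Against the mean the block gave 6336 higher and 6534 lower. Same-numbered libraries correlated in their deviations from the tissue means at -0.0092 to 0.17 over 11 pairs, with 2 above 0.1. Those 2 were thymus with spleen, at 0.17 for number 14 and 0.15 for number 17. Different-numbered libraries ran from -0.23 (thymus 17 with spleen 14) to 0.12 (thymus 17 with spleen 15). Same-numbered pairs with a brain library lay at 0.01 to 0.031. Whether the numbers pair the samples was not settled, and the main fit did not use them.

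Of 3252 recomputed values for 163 named genes, 3210 kept direction and side of the threshold, 17 lost the call, 5 gained one and 20 changed sign. Sign changes were in genes near 0. Under RLE, library totals and DESeq2 in turn, Apoe had 0.0982, 0.266 and 0.0981, Cdc42ep1 0.0467, 0.217 and 0.0469, Hdac2 0.123, 0.292 and 0.124, and Kdm1a 0.149, 0.318 and 0.149. Hdac2, Kdm1a and Cdc42ep1 were called higher in brain than the mean under library totals (adjusted p = 0.000782, 0.000439 and 0.0487), the first 2 also in DESeq2 (0.0379 and 0.0216), and Kdm1a also under RLE (0.0298). Fmr1 had 0.0586 under library totals and Cps1 -0.533 in limma voom. With each library left out, Cps1 ran from -0.0328 to 0.261 (below 0 without brain 15, thymus 14 or thymus 15), Hdac2 from -0.0916 to 0.0299 (above 0 without spleen 14) and Kdm1a from -0.0498 to 0.0509 (above 0 without brain 15 or spleen 14). The block also ended the calls of Homer2 (adjusted p = 0.0806), Gabrq (0.0685), Ryr1 (0.0649), Slc18a2 (0.114) and Lhb (0.173) against the mean of the tissues. The cause was not tested. Depth limits genes below 1 CPM, which rest on few counts.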

Other observations

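Further gene families, picked by symbol after their values were seen, are given as values. All 16 tested beta protocadherins, adhesion molecules that give neurons their surface identity, were higher in brain than in each tissue by 4-fold, with a median log2 fold change of 3.91, against 14.5% of all genes. Pcdhb9 had 12.7, 10.8 and 12.9 CPM in brain and at most 1.38 elsewhere. Of 11 gamma A protocadherins 9 were higher than in each tissue. These genes share their last exons, so the split of reads between them is uncertain. All 9 tested serotonin receptor genes, of 14 listed, were higher than in each tissue (median 8.46), against 14.5% of all genes. For those near 0 elsewhere this outcome was largely fixed by the filter, which they passed only through their brain counts. Htr2a, a receptor of cortical pyramidal cells, had 35.3, 40.1 and 45.5 CPM in brain and at most 1.37 elsewhere, and Htr2c, abundant in choroid plexus among other sites, had 21.8, 21.5 and 55.4 in brain. Brain 16 was thus the highest of the 3 for Htr2c, and it was also the highest for Kcnj13, named above. Among other choroid plexus genes, Ttr and Kl were instead highest in brain 15, Kl at 7, 11 and 9 counts. The mean log2 level of the 9 tested genes of that list was -0.39, -0.06 and 0.16 in brains 13, 15 and 16. Of 15 inward rectifier potassium channel genes 10 were higher than in each tissue, and Kcnj15 was lower than in each, a call lost under RLE scaling.

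Innate immune families lay on the other side. Of 18 tested CC chemokine genes 9 were lower than in each tissue, against 5.67% of all genes, and 1, Ccl27, was higher than in each. Ccl27 had 31.0, 37.2 and 26.4 CPM in brain, 2.51, 4.69 and 3.94 in liver and at most 0.823 in thymus and spleen. Ccl21, which guides lymphocytes into lymphoid tissue, had 0.183, 0.397 and 0.421 CPM in brain and 681, 740 and 766 in spleen. Of 10 tested CXC chemokine genes 8 were lower than the mean of the tissues, and Cxcl14 was higher, at 53.5, 61.8 and 49.97 CPM in brain, with an overlapping range in liver (50.2, 74.6 and 74.4). All 12 Toll-like receptor genes and all 9 interferon regulatory factors were lower than the mean of the tissues, against 42.0% of all genes, and 4 of each were lower than in each tissue. Under library totals alone the latter counts were 3 Toll-like receptor genes and 1 interferon regulatory factor. Irf8, a factor of macrophages, microglia and B cells, had 5.80, 6.05 and 6.61 CPM in brain, 26.9, 33.3 and 35.2 in liver, 143, 129 and 154 in thymus and 658, 631 and 630 in spleen.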
